A study of Mus musculus with 32 samples.

Results

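Rosiglitazone (RSG) was given to immature dendritic cells (iDCs) grown from the bone marrow of Pparg+/- LysCre mice, and the RSG-treated cultures of 4 mice were compared with vehicle-treated cultures of the same mice. The arrays were chosen by their labels, genotype PPARg +/-LysCre and cell type iDC, which gave 8 of the 32 arrays of the series: 4 with RSG and 4 with vehicle, paired by mouse number. All mice were C57Bl/6, and no ages are given in the sources used here. Mice 1 to 4 kept an intact Pparg allele beside a null allele and carried the LysCre transgene, so that the vehicle-treated cells compared here also had a single Pparg allele and Cre. Mice 5 to 8 (Pparg fl/- LysCre) carried LysCre with a null allele and a loxP-flanked allele, which Cre removes. LysCre is active in myeloid cells because the lysozyme M gene drives it, and how completely it recombined the allele in these iDCs was not analysed here. The iDCs were grown for 9 days with GM-CSF and IL-4, both at 20 ng/ml, and received vehicle (DMSO and ethanol) or 1 μM RSG. IL-4-treated macrophages of the same mice were grown with M-CSF and IL-4, also at 20 ng/ml, with the same treatments, and serve here as a comparison together with the Pparg fl/- LysCre iDCs. IL-4 was therefore present in every group.

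RSG is a thiazolidinedione that binds and activates PPARγ, the nuclear receptor that Pparg encodes. PPARγ pairs with the retinoid X receptor and binds direct repeats of the hexamer AGGTCA separated by a single base (DR1), and its best known target genes serve the uptake, transport and storage of fatty acids. Monocyte-derived DCs switch on PPARγ during differentiation with GM-CSF and IL-4, and its agonists are known to alter lipid handling and lipid antigen presentation in DCs.

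Expression was read on single-color Applied Biosystems arrays by chemiluminescence. Levels are given as log2 signal after quantile normalization, changes as RSG minus vehicle on the log2 scale with the standard error (SE) of the fit, and a probe was taken as detected where its signal-to-noise ratio (S/N) reached 3. Detected probes numbered 14546 to 15449 on the vehicle arrays and 14699 to 16248 on the RSG arrays. More probes were detected with RSG than with vehicle in each of the 4 mice, with differences of 1156, 660, 84 and 153 probes in mice 1, 2, 3 and 4 (mean 513 ± 500, SD, n = 4; two-sided exact sign-flip permutation p = 0.125, which is the smallest that 4 pairs allow). Only 325 of the 33012 noncontrol probes (0.984%) could be given a gene symbol. None of the dendritic cell or macrophage markers listed for this work was among them, so the cell type labels were not checked against markers, and the level of Pparg was not analysed here. Arrays were scanned on 4 days, each with 2 mice of a single genotype and with both treatments of both cell types. Mouse 5 had larger median RSG changes than the other Pparg fl/- LysCre mice in the probes called here, and the main results that include its iDCs are given with and without it.

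RSG changed the level of 1291 of 16620 tested probes in Pparg+/- LysCre iDCs, which is 7.77% (limma with the mouse as a block, with calls made at 1.5-fold or more and an adjusted p, after Benjamini and Hochberg, under 0.05). Of these, 634 probes (3.81%) were higher and 657 (3.95%) were lower with RSG. The median called rise was 1.06 (2.08-fold) and the median called fall was -1.02 (2.02-fold). By at least 8-fold, 32 probes rose and 9 fell, but these folds include signals below detection. Among probes detected on all 8 arrays, 5 rose and 7 fell by at least 8-fold, and 23 rose and 49 fell by at least 4-fold. Without the fold threshold, 1948 probes (11.7%) passed the adjusted p. The split of the calls depended on the scaling, at 588 higher and 775 lower under median scaling and 742 and 464 in the authors' ratios. In whole-culture RNA, more cells of a type and more RNA per cell cannot be told apart.

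The called changes were alike in the 4 mice, in part because the test selects such probes. In mice 1, 2, 3 and 4, the probes called higher had median changes of 1.11, 1.00, 1.09 and 1.02, and those called lower had -0.97, -1.06, -1.11 and -1.01. Of the 1291 called probes, 1286 moved the same way in all 4 mice. The vehicle and RSG arrays did not overlap for 1156 of them (89.5%), against 20.5% of all probes tested. Fits with only the 2 Pparg+/- LysCre mice of a single scan day called 242 probes (day 1, mice 1 and 2) and 364 probes (day 2, mice 3 and 4). These fits kept the Pparg fl/- LysCre mice, which entered the estimate of the spread. Where an identifier had 2 or more tested probes and at least 1 was called, all its probes changed in the same direction for 94 of 109 identifiers (86.2%), against 65.5% of the 927 identifiers with 2 or more tested probes.

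**Figure D1:**
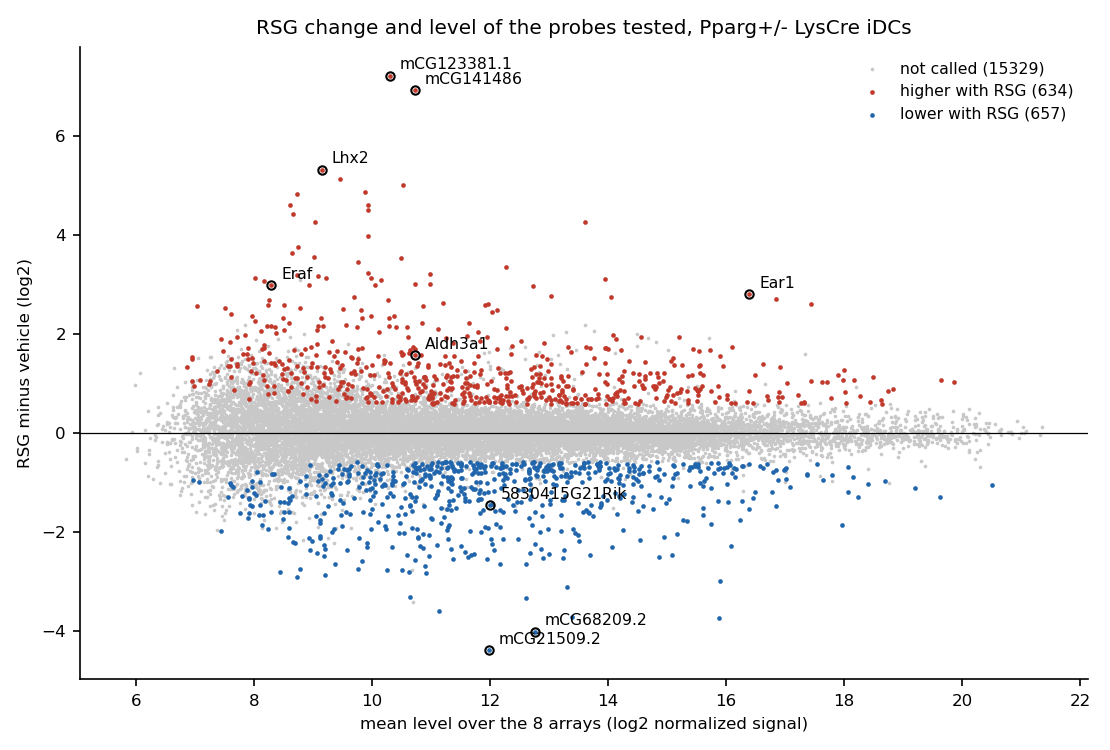
RSG minus vehicle (log2) against the mean level over the 8 arrays (log2 normalized signal) for the 16620 probes tested in Pparg+/- LysCre iDCs, with probes called higher in red and called lower in blue. The largest rises, among them Lhx2 and a pair of unnamed probes above 6.9, lie at middling mean levels because their vehicle arrays were near or below detection, while Ear1 rose at a mean level above 16.

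Of the called probes that rose, 439 were detected on all 8 arrays and 49 went from detection on no vehicle array to detection on all 4 RSG arrays, as did 64 (0.385%) of all tested probes. Of those that fell, 517 were detected on all 8 arrays and 12 went from all 4 vehicle arrays to no RSG array, as did 22 (0.132%) of all tested probes. The call itself selects such probes. Among the 11670 probes detected on all 8 arrays, 956 (8.19%) were called beside 7.77% of all tested probes.

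Among the 167 tested probes with a gene symbol, 11 (6.59%) were called, near the 7.77% of all tested probes. Of these, 8 rose (Lhx2, Eraf, Ear1, Aldh3a1, Lgals7, Tceal9, Acyp2 and Trmt61a) and 3 fell (5830415G21Rik, Akap7 and C130050O18Rik). Each moved the same way in all 4 mice with no overlap between vehicle and RSG arrays, which the call itself favors. Of all called probes 89.5% did not overlap, and of all tested probes 20.5%. With no detection filter the calls of Eraf, Aldh3a1, Acyp2, Trmt61a, Akap7 and C130050O18Rik were lost (adjusted p from 0.0621 to 0.131). With only the 2 Pparg+/- LysCre mice of either scan day, and the Pparg fl/- LysCre mice kept, these 6 and Lgals7 were not called.

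**Figure D2:**
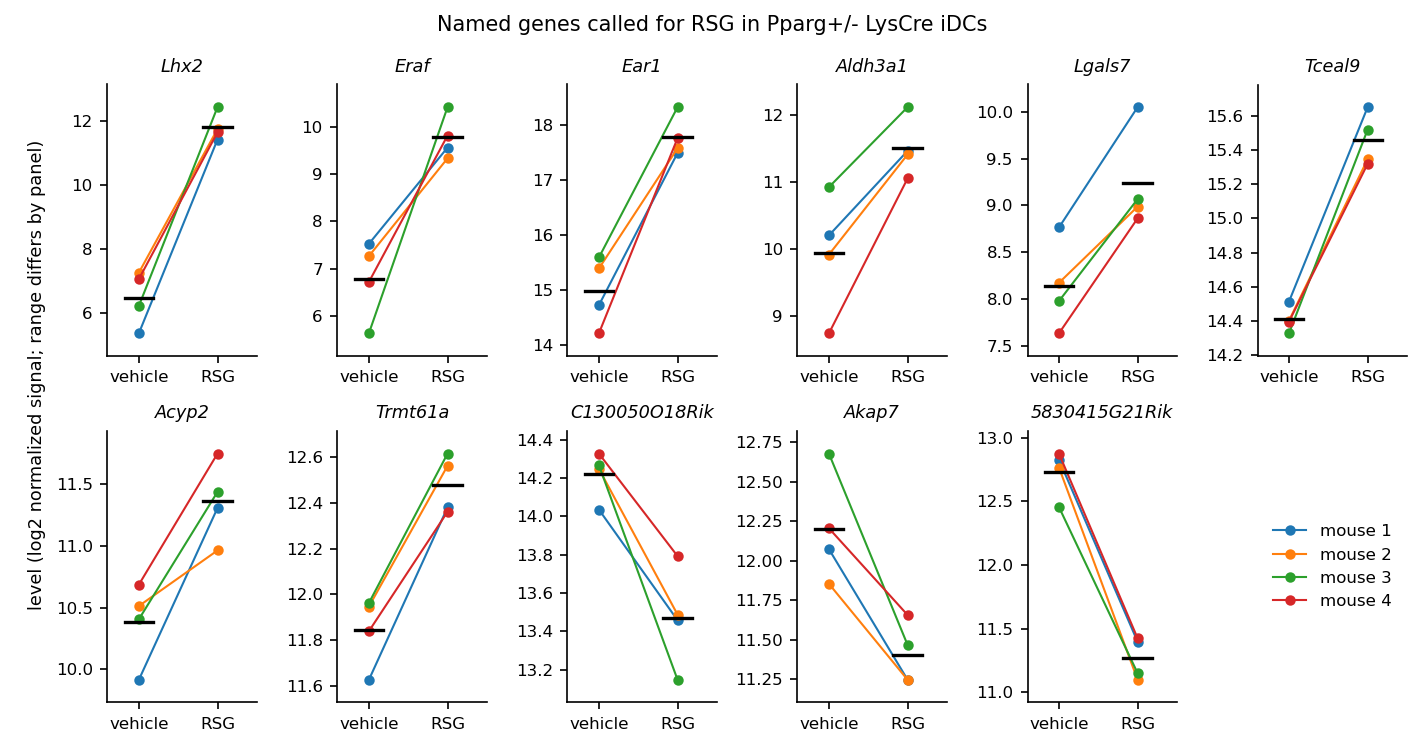
Level (log2 normalized signal) of the 11 named genes called for RSG in Pparg+/- LysCre iDCs, with a line for each of mice 1 to 4 from vehicle to RSG and black bars at the group means. Every line of the 8 genes in the first panels rises and every line of C130050O18Rik, Akap7 and 5830415G21Rik falls; the vertical ranges differ between panels and do not start at 0.

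The largest named rise was that of Lhx2, a LIM homeobox transcription factor known from forebrain, limb and hair follicle development. Its levels with vehicle were 5.38, 7.27, 6.23 and 7.07 in mice 1 to 4, and its S/N was below 3 on all 4 arrays. With RSG they were 11.42, 11.74, 12.43 and 11.64, and the probe was detected on all 4. Lhx2 passed the detection filter only through RSG-treated iDC arrays, so its test is not independent of the rise. The rise was 5.32 ± 0.55 (SE, with limma adjusted p = 0.00143). With each vehicle array raised at least to its lowest detected signal of any probe, the rise was 30.7-fold, which is not a minimum. It kept its call without any 1 of the 8 mice, and measured 5.26 (adjusted p = 0.0529) and 5.38 (adjusted p = 0.0459) within scan days 1 and 2.

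Tceal9 encodes a member of the TCEAL family, named for its resemblance to transcription elongation factor A. It was well above background in every culture, at 14.51, 14.40, 14.33 and 14.40 with vehicle and 15.65, 15.35, 15.52 and 15.32 with RSG. The rise of 1.05 ± 0.09 (adjusted p = 0.000779) was several times the spread between mice within either group (SD 0.08 and 0.16).

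Ear1 had the largest rise among named genes detected on all 8 arrays. It encodes an eosinophil-associated ribonuclease of the RNase A superfamily, whose mouse genes are near-identical copies, so that which of them the probe bound was not settled here. Its levels were 14.72, 15.39, 15.59 and 14.21 with vehicle and 17.49, 17.57, 18.32 and 17.76 with RSG. The lowest RSG array thus lay well above the highest vehicle array, and the rise was 2.81 ± 0.24, or 7.01-fold (adjusted p = 0.000779). It kept its call without any 1 mouse.

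Promoters of the called named genes, from RefSeq (GRCm38.p6; 250 bases before to 50 after each start), were searched on both strands for DR1 (AGGTCANAGGTCA), the single hexamer AGGTCA, which DR1 contains, the STAT motif TTCNNNNGAA and the GC box GGGCGG. Of the 10 promoters found for 8 of the 11 genes, none held DR1 or the STAT motif, 1 held the hexamer (C130050O18Rik) and 5 held the GC box, which are held by 0.0396%, 6.95%, 16.3% and 35.7% of all 32851 promoters, respectively. The promoters of the gene with the largest named rise, of the one with the largest rise among genes detected throughout, and of the single one with the hexamer are printed here, with GC boxes in capitals in Lhx2 and hexamers on either strand in capitals in C130050O18Rik. The first lies at chr2:38339031-38339330 on the plus strand, the second at chr14:43819590-43819889 on the minus strand and the third at chr5:139405034-139405333 on the plus strand. Another Lhx2 start in the table held none of the motifs. A match of letters is not a site of binding.
Lhx2: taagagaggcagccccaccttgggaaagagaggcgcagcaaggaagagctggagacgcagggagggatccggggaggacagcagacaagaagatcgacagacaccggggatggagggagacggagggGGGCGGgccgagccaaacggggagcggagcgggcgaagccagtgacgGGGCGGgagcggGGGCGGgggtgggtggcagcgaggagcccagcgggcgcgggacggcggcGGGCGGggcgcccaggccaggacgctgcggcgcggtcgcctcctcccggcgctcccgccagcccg
Ear1: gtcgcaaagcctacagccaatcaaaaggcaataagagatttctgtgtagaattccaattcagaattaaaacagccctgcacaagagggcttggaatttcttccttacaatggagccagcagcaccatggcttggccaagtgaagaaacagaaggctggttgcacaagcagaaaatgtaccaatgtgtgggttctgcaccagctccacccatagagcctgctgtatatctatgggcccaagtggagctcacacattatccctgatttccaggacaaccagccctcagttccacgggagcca
C130050O18Rik: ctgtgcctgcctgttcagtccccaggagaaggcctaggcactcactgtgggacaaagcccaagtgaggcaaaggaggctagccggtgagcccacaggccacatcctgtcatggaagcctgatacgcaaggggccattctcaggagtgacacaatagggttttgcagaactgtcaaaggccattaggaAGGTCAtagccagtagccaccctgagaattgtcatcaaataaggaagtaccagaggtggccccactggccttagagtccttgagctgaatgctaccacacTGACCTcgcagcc

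Aldh3a1 encodes an aldehyde dehydrogenase of medium-chain and aromatic aldehydes. With vehicle its levels were 10.20, 9.92, 10.92 and 8.74, with detection on 1 array, and with RSG they were 11.46, 11.41, 12.11 and 11.05, with detection on all 4. Aldh3a1 entered the test only through these RSG arrays, so its test is not independent of the rise. The size of that rise rests on vehicle values mostly below detection. Mouse 3 was the highest and mouse 4 the lowest in both treatments, and the rise was 1.56 ± 0.34 (adjusted p = 0.0261). The call was lost without any 1 of mice 1 to 4, with adjusted p between 0.0644 and 0.0935.

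Acyp2 encodes an acylphosphatase, which hydrolyses acyl phosphates. It measured 9.91, 10.51, 10.40 and 10.69 with vehicle and 11.31, 10.96, 11.44 and 11.75 with RSG. The rise of 0.99 ± 0.22 (adjusted p = 0.0279) was smallest in mouse 2 (0.45) and largest in mouse 1. It was no longer called without mouse 1, 3 or 4 (adjusted p of 0.0901 or more).

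Trmt61a encodes the catalytic subunit of a tRNA methyltransferase. Its levels rose from 11.63, 11.95, 11.96 and 11.84 to 12.38, 12.56, 12.61 and 12.36, a narrow but regular shift of 0.63 ± 0.15 (adjusted p = 0.0332). Its call was lost without any 1 of mice 1 to 4 or without mouse 8 (adjusted p at most 0.107). It was also lost without the mouse as a block (adjusted p = 0.133), with scan day as the block (0.164) and in the assay-normalized signal (0.0706).

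Lgals7 encodes galectin-7, a β-galactoside-binding lectin of stratified epithelia. It was low, at 8.76, 8.17, 7.98 and 7.63 with vehicle, with detection on 1 array, and at 10.05, 8.99, 9.07 and 8.86 with RSG, with detection on all 4. Mouse 1 was the highest in both groups, and the rise of 1.10 ± 0.14 (adjusted p = 0.0027) kept its call without any 1 mouse, but not within scan day 1 or 2 (adjusted p = 0.0897 and 0.0536).

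Eraf encodes the erythroid chaperone that stabilizes free α-hemoglobin. Levels with vehicle were 7.53, 7.27, 5.64 and 6.72, detected on 1 array, and with RSG 9.56, 9.33, 10.41 and 9.81, detected on all 4. The probe passed the detection filter only through these RSG arrays, where it was high, so its test is not independent of the rise. The size of the rise rests on vehicle values mostly below detection. The rise of 2.99 ± 0.73 (adjusted p = 0.0377) was the least regular of the named rises, from 2.03 in mouse 1 to 4.77 in mouse 3. It was not called without any 1 of mice 1 to 4 (adjusted p from 0.0732 to 0.129), under median scaling (adjusted p = 0.0664) or in the authors' ratios (adjusted p = 0.0524).

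The largest named fall was that of 5830415G21Rik, a gene known only by its clone name. It measured 12.83, 12.77, 12.46 and 12.88 with vehicle and 11.40, 11.10, 11.15 and 11.42 with RSG. The fall of -1.46 ± 0.11 (2.76-fold; adjusted p = 0.000597) was between -1.30 and -1.67 in every mouse and kept its call without any 1 mouse.

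Akap7 encodes an anchoring protein that holds protein kinase A near its substrates. It measured 12.07, 11.85, 12.68 and 12.21 with vehicle and 11.24, 11.24, 11.47 and 11.66 with RSG, a change of -0.80 ± 0.15 (adjusted p = 0.0158). Without the mouse as a block the adjusted p was 0.192, and the call was also lost without mouse 1 or 3 (adjusted p = 0.0568 and 0.0603), with scan day as the block (0.150) and in the authors' ratios (0.0758).

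C130050O18Rik, another gene with a clone name, measured 14.04, 14.25, 14.27 and 14.33 with vehicle and 13.46, 13.49, 13.15 and 13.79 with RSG. The fall of -0.75 ± 0.19 (adjusted p = 0.0457) was the weakest named call and was lost without any 1 mouse other than mouse 5 (adjusted p up to 0.153). It was also lost in the authors' ratios (-0.64, adjusted p = 0.152), in the assay-normalized signal (0.0840) and with scan day as the block (0.0636).

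A further 9 of the 167 named probes (5.39%) passed the adjusted p with changes below 1.5-fold, beside 657 (3.95%) of all tested probes, 5 higher and 4 lower, and were chosen after their values were seen. Those higher were Tmem251 (0.55), Rap2b, a small GTPase (0.53), Sowahc (0.44), Snap47 (0.39) and Mt3, a metallothionein (0.37). Those lower were Crip1, a LIM-domain protein (-0.57), Gprasp1, which sorts G protein-coupled receptors (-0.54), C130026I21Rik (-0.52) and Atox1, a copper chaperone (-0.43). All 9 moved the same way in all 4 mice, which selection by a test paired by mouse favors. For C130026I21Rik the vehicle and RSG arrays overlapped.

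Few genes of the functional lists had a named probe, so these lists describe single genes rather than pathways. Among PPAR targets and fatty acid handling, Acyp2 rose, while Paqr9, a progestin and adipoQ receptor family member, measured 0.72 ± 0.25 (adjusted p = 0.107; detected on none of the 8 arrays) and Paqr3 -0.08 ± 0.22. Acyp2 is in this list by the start of its name and is not known as an enzyme of fatty acid metabolism. None of the list's best known PPARγ targets had a named probe. Among developmental genes Lhx2 rose and Sfrp4, a secreted Wnt antagonist, measured 0.27 ± 0.64 (adjusted p = 0.826).

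No member passed the test in the lists for antigen presentation (H2-Q7 at 0.27 and H2-Q8 at 0.19, class I genes with near-identical copies), cytokines (Tnfsf13, which encodes APRIL, at 0.24), innate sensing (Nlrp3 at 0.24 and Tlr7 at 0.21), sphingolipids (Sgms2, a sphingomyelin synthase, at 0.23) or histones (H2bc18 at 0.31 and H2bc13 at 0.22). Of the receptor activity-modifying proteins of the calcitonin system, Ramp3 measured -0.92 ± 0.31 (adjusted p = 0.104) and Ramp1 0.89 ± 0.49 (adjusted p = 0.288), with changes of -0.34, 0.25, 1.55 and 2.11 in mice 1 to 4 and a mean of 0.49 without mouse 4. Beside 7.77% of all tested probes, none of 5 tested zinc finger and BTB genes and none of 7 tested olfactory, vomeronasal and taste receptors was called. The largest changes among them were in Zfp60 (-1.75 ± 0.64, adjusted p = 0.122; detected on 1 of 8 arrays) and Zfp945 (1.10 ± 0.31, adjusted p = 0.0598). Both rested in part on mouse 4, without which they measured -0.83 and 0.66. Of the 27 tested genes of all the lists that were not called, 20 had mice in both directions, and the mean of 21 moved by over 1.5 times or turned sign without 1 of the 4 mice.

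Of the marker lists of other cells that bone marrow cultures can hold, only those of eosinophils and erythroid cells had named probes. Ear1 was the sole eosinophil marker measured, with 14.21 to 15.59 on the vehicle and 17.49 to 18.32 on the RSG arrays, and in vehicle-treated macrophages of the same mice it was at 17.37 to 17.66. The erythroid markers measured were Eraf, which rose, and the α-globin gene Hba-a1, which was at 9.99 ± 0.65 with vehicle and 9.16 ± 0.97 with RSG (SD, n = 4; change -0.83 ± 0.40, adjusted p = 0.231). The part of other cell types in the RSG response was not tested.

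Larger changes were found among probes without a gene symbol. The 2 with the largest rise were mCG123381.1 and mCG141486. mCG123381.1 went from 6.89, 6.28, 7.65 and 5.94 to 14.20, 13.55, 14.01 and 13.87, a rise of 7.22 ± 0.41 (adjusted p = 0.000413) with detection on 1 vehicle array and all 4 RSG arrays. The size and rank of this rise rest on vehicle values mostly below detection. mCG141486 went from 6.37, 8.15, 7.26 and 7.24, with no detection, to 14.44, 13.79, 14.40 and 14.13, a rise of 6.93 ± 0.52 (adjusted p = 0.000562). Against vehicle arrays raised at least to their lowest detected signal it was 117-fold, a size that rests on values below detection. For both, the RSG levels of the 4 mice lay close together and far above every vehicle level. Both passed the detection filter only through RSG-treated iDC arrays, so their tests are not independent of the rise.

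The 2 with the largest fall were mCG21509.2 and mCG68209.2. mCG21509.2 measured 14.32, 14.30, 14.47 and 13.59 with vehicle and 10.62, 9.92, 9.78 and 8.79 with RSG, a change of -4.39 ± 0.35 (adjusted p = 0.000597). mCG68209.2 measured 13.14, 15.64, 15.05 and 15.22 with vehicle and 9.68, 10.34, 11.18 and 11.79 with RSG, a change of -4.01 ± 0.39 (adjusted p = 0.00121). Mouse 1 was the lowest for mCG68209.2 in both treatments. All 4 probes kept their calls without any 1 mouse and within both scan days.

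The genotypes ask whether the RSG response differs where Cre can remove the remaining Pparg allele. The same RSG contrast was therefore taken in iDCs of Pparg fl/- LysCre mice, and the difference between genotypes was tested. RSG changed 202 of 16620 probes (1.22%) in Pparg fl/- LysCre iDCs, 104 higher (0.626%) and 98 lower (0.59%). This count was 31 without mouse 5, 45 without mouse 7, 1 without mouse 8 and 0 without mouse 6. It also fell to 78, 118 and 112 without mouse 2, 3 or 4 and to 115 without the mouse as a block. At 2-fold it was 117, and in the authors' ratios it was 94 (48 higher and 46 lower). With no detection filter it was 0, where 3171 probes had an unadjusted p under 0.05, against 2649 among the tested probes. The probes called higher in Pparg+/- LysCre iDCs had a median change of 0.36 in Pparg fl/- LysCre iDCs and 519 of 634 (81.9%) were higher there, against 51.4% of all tested probes, whose median was 0.01. The probes called lower had a median of -0.37 and 549 of 657 (83.6%) were lower there, against 48.6% of all. Without mouse 5 these counts were 496 (78.2%, median 0.31) and 509 (77.5%, median -0.30), against 53.2% and 46.8% of all. The Pparg fl/- LysCre arrays entered the normalization, the detection filter and the estimate of the spread through which those probes were chosen.

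By mouse, the median change of the probes called higher was 0.51 in mouse 5 and 0.31, 0.22 and 0.37 in mice 6, 7 and 8, and that of the probes called lower was -0.62 in mouse 5 and -0.30, -0.21 and -0.37 in the others. The probes were chosen on mice 1 to 4, so the medians there, which the choice makes large, are not set against these. Of the calls in Pparg+/- LysCre iDCs, 65 rises and 71 falls were also called in the same direction in Pparg fl/- LysCre iDCs. That is 10.3% of the rises and 10.8% of the falls in Pparg+/- LysCre iDCs, and 62.5% and 72.4% of those in Pparg fl/- LysCre iDCs. These shared calls rested on every Pparg fl/- LysCre mouse: they were 12 and 10 without mouse 5, 0 and 0 without mouse 6, 17 and 18 without mouse 7, and 1 and 0 without mouse 8. They were also 29 and 30, 41 and 43, and 41 and 41 without mouse 2, 3 or 4, 42 and 42 without the mouse as a block, 38 and 35 in the authors' ratios, and 0 and 0 with no detection filter.

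**Figure D3:**
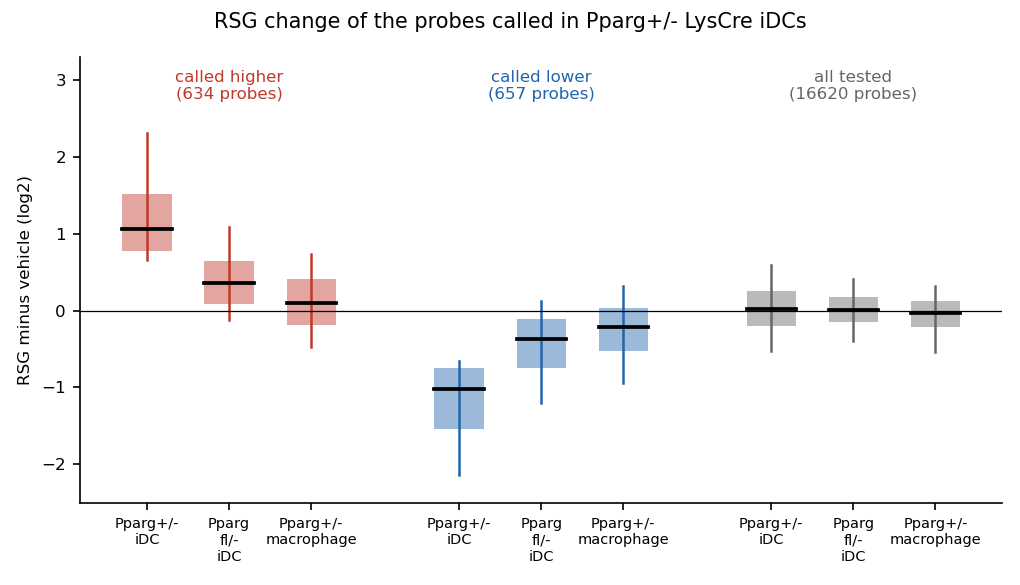
RSG minus vehicle (log2) of the 634 probes called higher and the 657 called lower in Pparg+/- LysCre iDCs and of all 16620 tested probes, in the 3 kinds of culture; boxes span the quartiles, lines run from the 10th to the 90th percentile, and black bars mark medians. Medians of the called probes are 0.36 and -0.37 in Pparg fl/- LysCre iDCs and 0.10 and -0.21 in Pparg+/- LysCre macrophages; those in Pparg+/- LysCre iDCs (1.06 and -1.02) are large by the choice of the probes.

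The difference itself passed the test for 71 of 16620 probes (0.427%), of which 39 had the higher value in Pparg fl/- LysCre iDCs and 32 had the lower one. This count was 148 without mouse 5 and at most 3 without any other mouse. It was 0 with no detection filter, where 3120 probes had an unadjusted p under 0.05, against 2606 among the tested probes. In the authors' ratios the split was 3 higher and 27 lower. Because each scan day held a single genotype, genotype and scan day cannot be told apart.

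The single named gene whose RSG effect differed between genotypes was 5830415G21Rik. In Pparg fl/- LysCre iDCs it measured 12.30, 11.80, 11.44 and 11.59 with vehicle and 11.88, 11.39, 11.53 and 11.58 with RSG in mice 5 to 8, a change of -0.19 ± 0.11 (adjusted p = 0.481) beside -1.46 in Pparg+/- LysCre iDCs. Without mouse 5 or 6 this change was -0.11, and without mouse 7 it was -0.28. The vehicle levels of the genotypes did not overlap, whereas with RSG both lay between 11.10 and 11.88. The difference in effect was 1.28 ± 0.16 (adjusted p = 0.0442), and it kept its call without mouse 5 (adjusted p = 0.0321) but lost it without any other 1 mouse (adjusted p from 0.0955 to 0.130). The call was also lost in the authors' ratios (adjusted p = 0.0889), with scan day as the block (adjusted p = 0.0548) and with no detection filter (adjusted p = 0.198).

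For the other called genes and the 4 unnamed probes the difference between genotypes did not pass the test with all mice, which does not show that they responded alike. The 4 probes were chosen for their changes in Pparg+/- LysCre iDCs, so their tests here are not independent of that choice. Ear1 rose by 2.29 ± 0.24 in Pparg fl/- LysCre iDCs (adjusted p = 0.0129), a difference from Pparg+/- LysCre iDCs of -0.52 ± 0.34 (adjusted p = 0.509). This difference was -0.33 without mouse 5, -0.27 without mouse 4 and -0.73 without mouse 2. The rise of Ear1 in Pparg fl/- LysCre iDCs was 2.48 without mouse 5 (adjusted p = 0.0471). Its call was lost without mouse 6 or 8 (adjusted p = 0.0667 and 0.0708) and with no detection filter (adjusted p = 0.0648). Lhx2 measured 11.32, 8.92, 7.49 and 8.71 with RSG in mice 5 to 8, of which mouse 5 was close to the Pparg+/- LysCre mice, and its difference was -3.37 ± 0.78 (adjusted p = 0.117; -3.95 without mouse 5, adjusted p = 0.0651), measured from vehicle values below detection in both genotypes. In Pparg fl/- LysCre iDCs mCG123381.1 rose by 4.01 ± 0.41, from vehicle values mostly below detection. There mCG141486 rose by 3.18 ± 0.52 (9.04-fold), from vehicle values that were below detection on every array. The differences of these probes between genotypes had adjusted p of 0.0672 and 0.0792. No size is given for these differences, because the vehicle values were below detection on nearly every array of both genotypes. mCG21509.2 changed by -2.26 ± 0.35 (adjusted p = 0.0329) and mCG68209.2 measured -1.38 ± 0.39 (adjusted p = 0.149), the latter from vehicle levels between 15.81 and 18.82, above every Pparg+/- LysCre level. Their differences from Pparg+/- LysCre iDCs were 2.14 (adjusted p = 0.115) and 2.63 (adjusted p = 0.0978). Without mouse 5 the differences passed the test for mCG141486 (adjusted p = 0.0484) and mCG21509.2 (2.61, adjusted p = 0.0289), and not for mCG123381.1 (adjusted p = 0.0872) or mCG68209.2 (3.02, adjusted p = 0.0592). Without mouse 5 the changes in Pparg fl/- LysCre iDCs were -1.78 for mCG21509.2 and -0.996 for mCG68209.2, and none of the 4 probes was called (adjusted p from 0.0515 to 0.334). Of the calls in Pparg fl/- LysCre iDCs, those of mCG141486 and mCG21509.2 were kept only without mouse 1 when a mouse was left out, and that of mCG123381.1 was lost without mouse 5, 6 or 8. With no detection filter all 3 were lost (adjusted p from 0.0648 to 0.110), mCG141486 was lost without the mouse as a block (0.0625) and mCG21509.2 in the authors' ratios (0.0694). Mouse 5 had the highest RSG level of the Pparg fl/- LysCre mice for Lhx2, mCG123381.1 and mCG141486 and the lowest for mCG21509.2 and mCG68209.2.

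**Figure D4:**
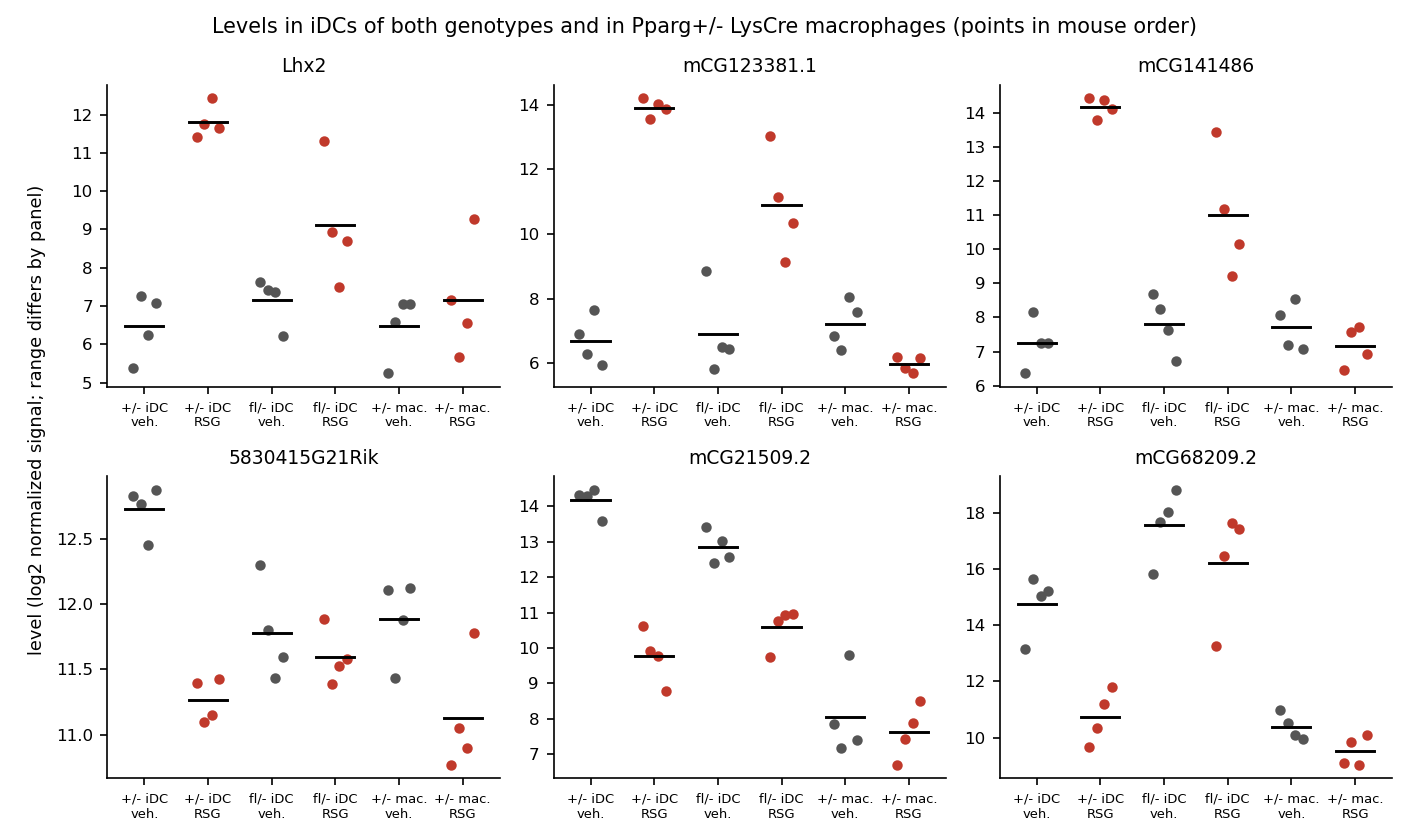
Levels (log2 normalized signal) of Lhx2, 5830415G21Rik and the 4 unnamed probes with the largest changes, with vehicle (grey) and RSG (red) in iDCs of both genotypes and in Pparg+/- LysCre macrophages; points are mice in number order and bars are means of 4. The RSG levels of Pparg fl/- LysCre iDCs lie between vehicle and RSG levels of Pparg+/- LysCre iDCs for Lhx2, mCG123381.1 and mCG141486 in every mouse, while the macrophage levels of these 3 lie below 9.3; vertical ranges differ between panels.

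In IL-4-treated macrophages of the same Pparg+/- LysCre mice, RSG changed 354 of 16620 probes (2.13%), 164 higher (0.987%) and 190 lower (1.14%), in the fit of all 32 arrays. In that fit the count in Pparg+/- LysCre iDCs was 1309, 661 higher and 648 lower, and the difference between the counts was not tested. The split in macrophages depended on the scaling, at 193 higher and 153 lower under median scaling and 102 and 310 in the authors' ratios. Without mouse 1, 2, 3 or 4 the macrophage count was 200, 183, 215 and 188, and without the mouse as a block it was 229. The probes called higher in iDCs had a median change of 0.10 in macrophages and 383 of 634 (60.4%) were higher, against 44.4% of all tested probes. Those called lower in iDCs had a median of -0.21, and 476 of 657 (72.5%) were lower, against 55.6% of all. In the same direction, 48 rises and 55 falls were called in both cell types, which is 7.57% and 8.37% of the iDC calls and 29.3% and 28.9% of the macrophage calls.

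The RSG effect itself differed between the cell types for 852 probes (5.13%). It was higher in iDCs for 472 of them (2.84%) and in macrophages for 380 (2.29%). The split depended on the scaling, at 401 higher and 512 lower under median scaling and 907 and 177 in the authors' ratios, where the median difference of all probes was 0.27. Without mouse 1, 2, 3 or 4 the count was 457, 341, 369 and 475, and without the mouse as a block it was 502. Within scan days 1 and 2 it was 47 and 100.

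Among the 167 tested named probes the RSG effect was higher in iDCs for 7 and lower for 3, beside background shares of 2.84% and 2.29% over all tested probes. The 7 were Lhx2, Sfrp4, Epdr1, Acyp2, Tceal9, Rtl6 and Tmem251, and the 3 were Wnk4, Akap7 and Ghdc. Each of these directions held under every scaling tried, but the calls did not. They were lost under median scaling for Epdr1 and Rtl6, in the assay-normalized signal for Rtl6, Ghdc, Akap7 and Tmem251, in the authors' ratios for Ghdc, Akap7 and Wnk4, and with no detection filter for Sfrp4, Epdr1, Rtl6, Akap7 and Wnk4. In fits with 2 Pparg+/- LysCre mice of a single scan day and the Pparg fl/- LysCre mice, none of the 10 was called. The lowest adjusted p was 0.0547, for Tceal9.

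Lhx2 was detected on no vehicle-treated and on 1 RSG-treated macrophage array, and its change there was 0.68 ± 0.61. The difference from iDCs was 4.64 ± 0.86 (adjusted p = 0.00258), a call lost without mouse 3 alone; its size rests on values below detection. mCG123381.1 and mCG141486 were likewise at 5.69 to 6.20 and 6.45 to 7.71 in RSG-treated macrophages, with no detection. Their effects were higher in iDCs by the test (adjusted p = 5.74e-06 and 3.71e-05), and the size of these differences is not given because the macrophage values with RSG were below detection. Like Lhx2, both probes passed the detection filter only through RSG-treated iDC arrays, and they were chosen for their rises in iDCs. These tests are therefore not independent of that choice.

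Tceal9 and Acyp2 stood higher in macrophages than in iDCs and moved the other way there without passing the test in macrophages. Tceal9 was at 18.27 ± 0.26 with vehicle and 17.96 ± 0.17 with RSG in macrophages (SD, n = 4; change -0.31 ± 0.14, adjusted p = 0.281), and its effect in iDCs was higher by 1.36 ± 0.19 (adjusted p = 0.00031). Acyp2 was at 13.16 ± 0.22 and 12.70 ± 0.16 (change -0.46 ± 0.20, adjusted p = 0.288), a difference of 1.45 ± 0.29 (adjusted p = 0.00458). Both calls held without any 1 mouse.

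For Sfrp4 the change that passed the test was in macrophages. Its macrophage levels were 12.55, 11.64, 10.08 and 10.60 with vehicle and 8.68, 8.20, 8.11 and 7.17 with RSG, which ended in no detection on any of the 4 arrays. The levels with RSG were thus 9.06-fold lower (adjusted p = 0.00726, and 0.0648 without mouse 4), a size that rests on values below detection. Sfrp4 passed the detection filter only through vehicle-treated Pparg+/- LysCre macrophages, where it was high. Neither this fall nor the difference between cell types is independent of that selection. In iDCs Sfrp4 was detected on 1 of the 8 arrays, at 6.85, 7.45, 7.85 and 7.31 with vehicle and 9.62, 6.06, 7.25 and 7.61 with RSG. The difference, which rests on values below detection, was 3.45 ± 0.91 (adjusted p = 0.0276), not called without any 1 of mice 1 to 4.

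Epdr1, an ependymin-related protein of the lysosome list, measured 6.28, 7.78, 8.15 and 8.33 with vehicle and 9.01, 7.97, 8.49 and 8.59 with RSG in iDCs, mostly below detection, and its change of 0.88 ± 0.52 came largely from mouse 1 (2.73). In macrophages its change was -1.34 ± 0.43 and did not pass the test. The difference was 2.22 ± 0.60 (adjusted p = 0.0319), and it too was lost without any 1 of mice 1 to 4.

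Rtl6, a domesticated retrotransposon Gag gene, was at 9.08, 9.44, 9.19 and 9.60 with vehicle and 10.03, 10.29, 9.90 and 10.15 with RSG in iDCs (0.76 ± 0.21, adjusted p = 0.0587), and its macrophage change was 0.00 ± 0.16. The difference was 0.76 ± 0.22 (adjusted p = 0.0447), kept without mouse 5 or 7 and lost without any other 1 mouse. It was also lost without the mouse as a block (adjusted p = 0.200), with scan day (0.204) or the culture pair (0.0750) as the block, under median scaling (0.0625), in the assay-normalized signal (0.115) and with no detection filter (0.126). Tmem251 was at 13.90, 14.01, 13.94 and 13.96 with vehicle and 14.56, 14.49, 14.49 and 14.47 with RSG, one of the most regular shifts of the named genes. Its difference from macrophages was 0.66 ± 0.14 (adjusted p = 0.00593; 0.0686 without mouse 1).

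Of the 3 genes with a lower effect in iDCs, Wnk4, a kinase of ion transport, was at 11.90, 11.94, 11.89 and 12.01 with vehicle and 11.74, 11.17, 11.53 and 11.54 with RSG. Its change was -0.44 ± 0.13 in iDCs (adjusted p = 0.0676) and 0.37 ± 0.14 in macrophages (adjusted p = 0.211), a difference of -0.81 ± 0.20 (adjusted p = 0.022) that was lost without mouse 2, 3 or 4, with no detection filter (adjusted p = 0.0727) and in the authors' ratios (-0.52, adjusted p = 0.163). Ghdc was at 11.78, 11.80, 11.74 and 11.54 with vehicle and 11.39, 11.27, 11.61 and 11.21 with RSG. Its changes were -0.35 ± 0.11 and 0.26 ± 0.09, neither of which passed the test, and the difference was -0.60 ± 0.13 (adjusted p = 0.00642; 0.102 without mouse 2). In the authors' ratios it was -0.31 (adjusted p = 0.355) and in the assay-normalized signal -0.49, below 1.5-fold. For Akap7 the macrophage change was -0.06 ± 0.15 and the difference -0.74 ± 0.21 (adjusted p = 0.0413), which was kept without mouse 5 and lost without any other 1 mouse. It was called in only 3 of 10 other settings, and was lost in the authors' ratios (-0.46, adjusted p = 0.311) and when no block was fitted (adjusted p = 0.522), among others.

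**Figure D5:**
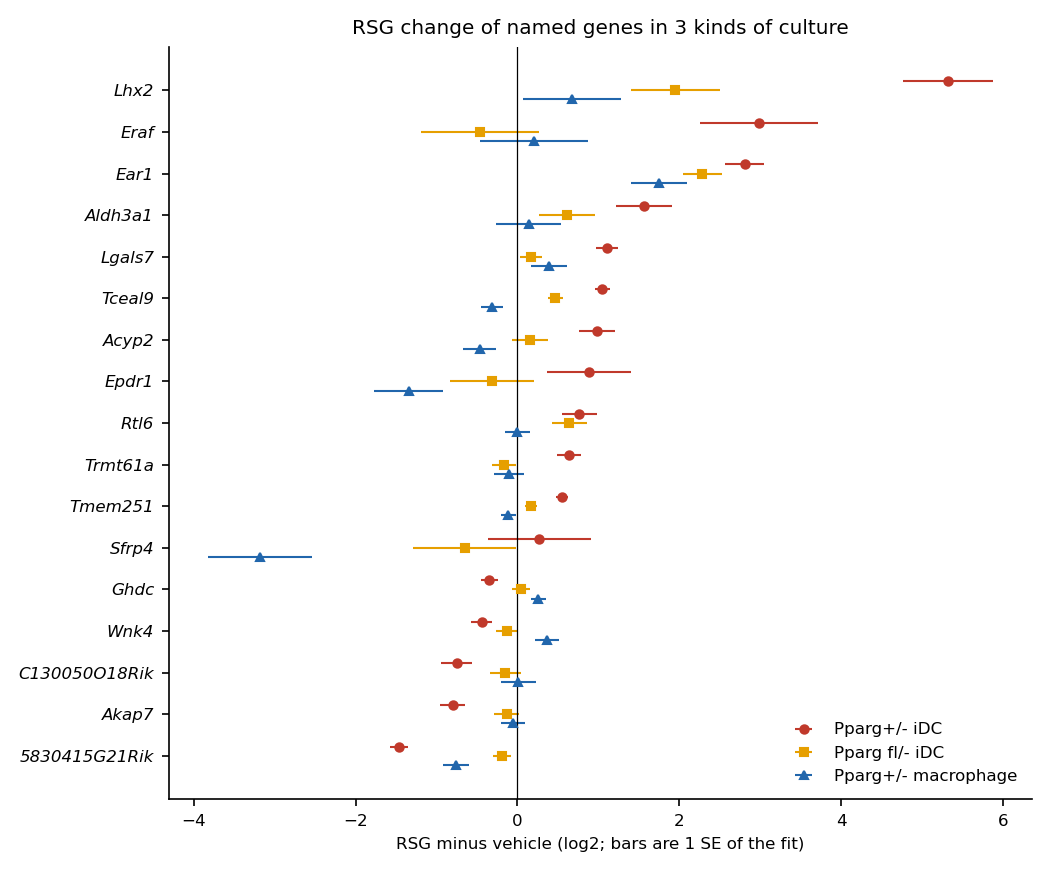
RSG minus vehicle (log2, with 1 SE of the fit) of the 17 named genes called in Pparg+/- LysCre iDCs or differing between cell types or genotypes, in Pparg+/- LysCre iDCs (red), Pparg fl/- LysCre iDCs (orange) and Pparg+/- LysCre macrophages (blue). Ear1 lies above 1.7 in all 3 kinds of culture, Lhx2 lies at 5.32 in Pparg+/- LysCre iDCs and at 1.95 and 0.68 in the others, and Sfrp4 lies at -3.18 in macrophages, from values with RSG that were below detection.

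Among the 11 called named genes, 2 were also called in Pparg+/- LysCre macrophages in the same direction. Over all iDC calls this held for 7.57% of the rises and 8.37% of the falls. In macrophages Ear1 rose by 1.75 ± 0.35 (adjusted p = 0.00635). There 5830415G21Rik changed by -0.76 ± 0.16 (adjusted p = 0.0097), from 11.89 ± 0.32 with vehicle to 11.12 ± 0.45 with RSG (SD, n = 4). The macrophage call of Ear1 was lost without mouse 2 or 3 (adjusted p = 0.0550 and 0.0563), and that of 5830415G21Rik without mouse 1 or 3 (adjusted p = 0.140 and 0.103) or without the mouse as a block (adjusted p = 0.143). Neither differed between the cell types by the test (adjusted p = 0.226 and 0.0726).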

How the data were processed

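RNA of 32 cultures from 8 mice was labelled with digoxigenin and hybridized to single-color arrays. The deposited scanner files hold, per probe, a background-corrected signal intensity, an assay-normalized signal and an S/N score; the scanner software is not given in the sources used here. A further deposited table holds the authors' ratios, each signal scaled per array and divided by a value per probe. The choice of that value stays unknown. For Affymetrix arrays, the study's methods describe scaling to each gene's median and then to the vehicle control. Whether this was done here was not tested, and the table of ratios served as an alternative. How far the number of arrays limits the precision was not tested.

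After log2 transformation and quantile normalization of all 32 arrays together, a probe was tested where S/N reached 3 on at least 3 of 4 arrays of a group, which kept 16620 of 33012 probes (50.3%). limma 3.58.1 in R 4.3.3 (other steps in pandas 2.3.3 and numpy 2.4.6 under Python 3.11.15) was fitted with the mouse as a block, to the 16 iDC arrays for the RSG effects in iDCs and their difference between genotypes, and to all 32 arrays for macrophages and the difference between cell types. Probes changed by 1.5-fold or more at a Benjamini-Hochberg adjusted p under 0.05 were called. The methods' t-test was an alternative, with other scalings, filters, blocks, thresholds and mice left out. The fit was tested on simulated data, of which no result is given here.

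Vehicle and RSG arrays were paired because the same number marks the same mouse; the deviations of paired iDC arrays from their group means correlated at 0.0372 to 0.0745 in mice 1 to 4 and at 0.271 to 0.549 in mice 5 to 8. Symbols came from RefSeq for 317 probes and from the study's supplementary tables for 8; the latter were used for names only. Different probes of a gene were kept apart.

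Genes named in the text were those of 26 gene lists with a named probe, every named gene called in Pparg+/- LysCre iDCs or differing between genotypes or cell types, and, of probes with no symbol, the 2 with the largest rise and the 2 with the largest fall. For a called RSG effect of a named gene or of these probes, 1 treatment could be undetected on every array. The fold then given was the mean of the detected group over that of the other. Each array of the other was set at the higher of its lowest detected signal of any probe and the probe's own. This fold is not a minimum, because probes could also be undetected above that lowest signal. The members and lists were chosen with earlier results of these data known. P-values of the main fits rest on the spread left within mice after the mouse block. That spread was pooled over all groups of a fit and moderated over probes by limma. Each mouse gave 1 culture of each kind.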

Additional observations from a re-analysis of the deposited data

Results flagged for a closer look

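The RSG effect differed between the genotypes in iDCs for 71 probes and between the cell types of Pparg+/- LysCre mice for 852 probes, by tests of the differences themselves in limma. Between genotypes, the difference was 1.28 for 5830415G21Rik, the higher value being that of Pparg fl/- LysCre iDCs. Between cell types, the effect in iDCs minus that in macrophages was 4.64 for Lhx2, 3.45 for Sfrp4 and 2.22 for Epdr1. The values for Lhx2 and Sfrp4 rest on levels below detection, and that for Epdr1 on iDC levels mostly below detection. The difference was 1.45 for Acyp2, 1.36 for Tceal9, 0.76 for Rtl6 and 0.66 for Tmem251. It was -0.81 for Wnk4, -0.74 for Akap7 and -0.60 for Ghdc. The 4 arrays of each treatment in iDCs of both genotypes and in Pparg+/- LysCre macrophages were also checked for a single array far from the other 3 (Dixon's test, the gap to the nearest array over the whole range), for 54 probes, the number of detected probes and the median signal. Of 336 such sets, 13 (3.87%) passed the critical value, which chance passes in about 1 of 20 sets. In vehicle-treated Pparg+/- LysCre iDCs it was Zfp60 in mouse 4 (0.883). In RSG-treated Pparg fl/- LysCre iDCs mouse 5 was the far one for Nlrp3 (0.967), Gprasp1 (0.888), mCG21509.2 (0.833) and Hba-a1 (0.833), mouse 7 for Olfr920 (0.993), Wnk4 (0.874) and Olfr921 (0.847), and mouse 8 for H2bc13 (0.839). With vehicle there it was Paqr3 in mouse 8 (0.856). In RSG-treated macrophages it was the number of detected probes in mouse 2 (0.909; 15250, against at most 13959 in the others), Ear1 in mouse 3 (0.839) and Olfr921 in mouse 4 (0.837).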

How the results depend on the processing

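The count of probes changed by RSG in Pparg+/- LysCre iDCs (1291) was 815 with no detection filter, 1948 with no fold threshold and 684 at 2-fold. Within scan days 1 and 2 it was 242 and 364. These 2 alternatives were chosen after seeing the data. Each rests on 2 Pparg+/- LysCre mice, with the Pparg fl/- LysCre mice kept in the fit. The count was 869 to 1339 with a mouse left out and 999 without the replicate block. The methods' t-test gave 1764 probes unadjusted and 977 after Benjamini-Hochberg adjustment. The difference between genotypes (71) was 30 in the authors' ratios, 19 in the assay-normalized signal, 0 with no detection filter, 164 with detection on all 4 arrays of a group, 129 with an offset, 44 with scan day as the block, 254 in a fit of all 32 arrays, 73 without the replicate block and 0 to 148 with a mouse left out. The difference between cell types (852) was 514 with no detection filter, 522 at 2-fold, 502 without the replicate block, 47 and 100 within scan days 1 and 2, and 341 to 1136 with a mouse left out. The authors' ratios moved the median of all probes to 0.27 for the difference between cell types and to -0.12 for that between genotypes. Causes were not tested, except that fewer mice or a different filter changes what is fitted.

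Over 20 alternatives for each of the 15 called genes and probes, 243 of 300 values kept the call, 57 lost it and 0 changed direction. The losses were in C130050O18Rik (13), Trmt61a (11), Eraf (9), Akap7 (8), Aldh3a1 (7), Acyp2 (6), Lgals7 (2) and Lhx2 (1). Of the 6 genes named for a difference between cell types but not called in iDCs, 113 of 120 values kept their side of the threshold and their direction, 5 gained a call, and Sfrp4 (0.27) changed sign within scan day 2 (-0.15) and without mouse 1, with a range of -0.56 to 0.82 when a mouse was left out. Signals near background limit Lhx2, Eraf, Aldh3a1, Lgals7, Epdr1 and Sfrp4, which were detected on no more than 1 vehicle-treated array of Pparg+/- LysCre iDCs.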
